A study of Ambystoma mexicanum with 6 samples.

Results

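The genes described here encode the cytosolic translation factors and the aminoacyl-tRNA synthetases of the axolotl. They were chosen by gene symbol alone: initiation factors (EIF1 to EIF6), elongation factors (EEF1 and EEF2) with the enzymes named after them, the release factor gene GSPT1, and synthetases. The eIF2 kinase genes EIF2AK2 and EIF2AK3 were left out of the rule. It matched 121 rows of the count table. Rows that carried the same symbol, also with a .L or .S ending, were represented by the row with the highest mean count, which left 87 members among 99126 gene models. Of these, 83 had enough reads to be tested, and the other 4 (EIF4G3, EEF1A2, GSPT1 and LARS) held at most 13 counts in any library.

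Messenger RNA was sequenced from AL1 cells, a wild-type fibroblast line of Ambystoma mexicanum. In 3 samples, called treated here, cells received 10 µM etoposide, which breaks DNA through topoisomerase, together with 1 µM nutlin-3a, an MDM2 inhibitor, for 24 h. They were then kept in 1 µM nutlin-3a for 11 days, a schedule used to induce senescence, in which cells stop dividing for good. The other 3 samples received only the solvent DMSO and were passaged during the 12 days so that they went on dividing, and all cells were harvested at day 14. The effects of the drugs, of senescence and of no longer dividing therefore cannot be told apart in this comparison.

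Protein synthesis starts when eIF2 brings the initiator tRNA to the small ribosomal subunit and the eIF4F complex brings the capped mRNA, with eIF3 as the scaffold between them. eEF1A then delivers each charged tRNA, eEF2 moves the ribosome along, and release factors end the chain. Aminoacyl-tRNA synthetases load each amino acid onto its tRNA, for most amino acids with separate enzymes for the cytosol and for mitochondria. These steps are controlled by phosphorylation of eIF2 during stress and by the mTORC1 pathway through the eIF4E-binding proteins. The roles given below are known from mammals and yeast.

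Library totals ran from 28604727 to 46686876 counts, and the members took 2.30% to 2.39% of the counts in DMSO and 1.96% to 2.26% in treated libraries. Levels below are in CPM, counts brought to a common library size after TMM scaling, which balances the libraries on a trimmed mean of their log ratios, and a member was called changed at an adjusted p below 0.05 in edgeR's quasi-likelihood test over all 17424 models tested. After TMM scaling the members' summed level ran from 20205 to 21014 CPM in DMSO and from 23494 to 25174 CPM in treated libraries. Their raw share of the counts was thus lower in treated libraries, while their scaled sum was higher. Whether replicate libraries are separate cultures is not given in the labels. The p-values therefore measure how far these libraries differ, and that spread may be technical. In bulk RNA, fewer cells of a type and less RNA per cell cannot be told apart. Of 15 fibroblast marker genes listed, 9 could be tested; VIM, COL1A1 and FN1 were abundant, while THY1, DCN and FBN1 were at or near 0. Markers of other cell types were mostly at or near 0, including PTPRC and CDH5 at 0 counts, apart from KRT18 at 1360 ± 62.4 CPM in DMSO. The summed level of the 6 immune markers found ran from 1.70 to 2.38 CPM in DMSO and from 5.74 to 8.37 CPM in treated libraries, and their part in the results was not tested.

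As a set the members split evenly. Of 83 tested members 22 were called higher (26.5%) and 20 lower (24.1%), where 25.5% of all tested models were higher and 26.8% lower. In either direction 50.6% of the members were called, beside 52.3% of all models. The groups did not overlap in 49 members (59.0%), beside 60.2% of all models. Treated libraries were all above DMSO in 26 members and all below in 23, where the shares over all models were 28.8% and 31.4%. The median log2 fold change was −0.05 for the members and −0.03 for all models. The share of members called was thus near the background.

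Their changes were small in size. Only 2 members were called at least 2-fold higher (2.41%) and 5 at least 2-fold lower (6.02%), where the shares over all models were 11.7% and 12.9%. In 59 members (71.1%) the fitted change stayed under 1.5-fold, as in 51.1% of all models. The same held among abundant genes: of the 73 members with a mean of at least 10 CPM, 78.1% stayed under 1.5-fold, beside 56.7% of the 6317 models at that level. In that range 28.8% of members were higher and 19.2% lower, beside 35.9% and 28.7% of the models. The 7 members past 2-fold were EIF4E1B and EEF1AKMT1 on the higher side, EIF4E1B with few counts, and EEF1AKMT2, EEF1AKMT3, EEF1AKMT4, AARS2 and WARS2 on the lower side.

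These directions depend on how libraries are scaled. With library size only, the median model moved by −0.37 on the log2 scale; 5 members were then higher and 47 lower, beside 13.3% and 40.3% of all models. The rises that stayed called in all 15 alternatives tried were EIF1AX, EIF3E, EEF1AKMT1 and RARS1. EIF4E1B stayed called in the 14 that gave it a value, since it falls under the filter on a mean of 1 CPM. It passed the main low-count filter only through the treated libraries, so its call is a description, here and in each count of rises. Of the 20 falls, 18 stayed called in all 15, with IARS1 and EIF2B1 as the exceptions. Of the 42 calls, 32 (14 higher, 18 lower) held in every alternative that gave a value, other than library size only. Treated replicate 2 had the highest treated level in 17 of the 22 members that rose, and the lowest in 11 of the 20 that fell. Without it 24 members rose and 20 fell, beside 24.8% and 25.4% of all models.

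**Figure D1:**
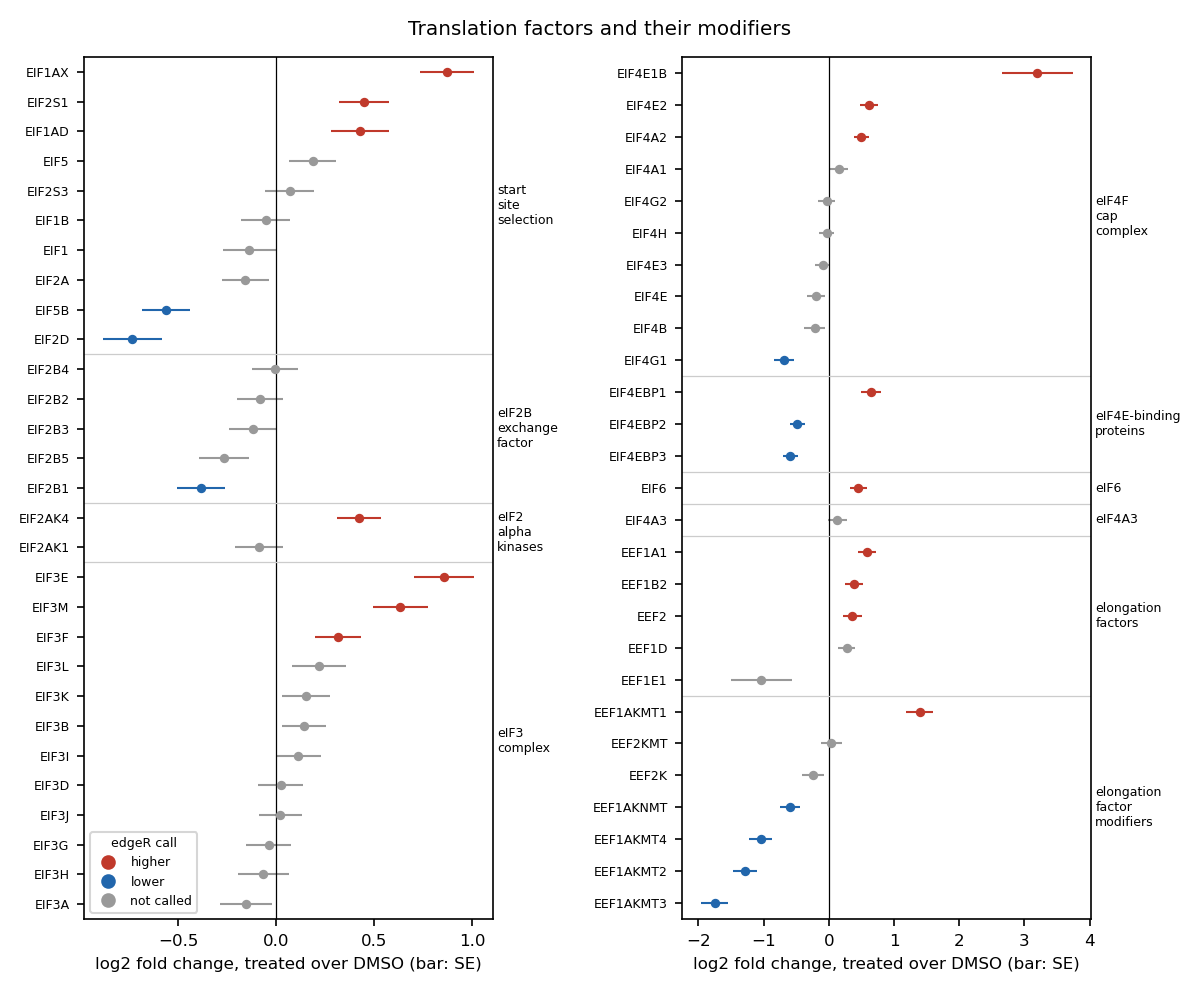
Log2 fold change, treated over DMSO, of each tested translation factor and modifier, grouped by role and coloured by edgeR's call; bars are standard errors. Most points lie within 1 log2 unit of 0, with EIF4E1B (3.19) and EEF1AKMT3 (−1.75) at the ends, and the scales of the panels differ.

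Of 10 members grouped under start codon selection, EIF1AD included, 3 rose and 2 fell, beside 25.5% and 26.8% of all models. EIF1AX, whose product opens the small subunit for scanning, gave 349, 349 and 338 CPM in DMSO and 552, 755 and 587 CPM in treated libraries. Every treated library lay above every DMSO library, and the log2 fold change was 0.87 (SE 0.14, edgeR adjusted p = 0.000169). EIF1AX spans 810648259 to 810697262 on chromosome 7p (plus strand) of AmexG_v6_DD, the build of all positions given here. EIF2S1, the α subunit of eIF2 that stress kinases phosphorylate, measured 408, 428 and 446 CPM in DMSO and 532, 654 and 561 CPM in treated cells. The groups did not overlap (log2 fold change 0.45, SE 0.13, edgeR adjusted p = 0.00958), although the call was lost without DMSO replicate 2 (0.44, edgeR adjusted p = 0.0543). A short second row named EIF2S1, of 285 bp and few counts, was not called (−0.31). EIF2S3, the γ subunit, overlapped between the groups at 365 ± 14.9 and 383 ± 39.9 CPM (SD, n = 3 per group). EIF1AD, which carries an eIF1A-like domain, rose from 20.2 ± 1.05 to 27.1 ± 5.72 CPM, a call lost without DMSO replicate 1 (0.39), DMSO replicate 2 (0.40) or treated replicate 2 (0.25).

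The start codon factors that fell were EIF5B and EIF2D. EIF5B, the GTPase that joins the ribosomal subunits, gave 26.9, 31.1 and 30.3 CPM in DMSO and 21.5, 18.1 and 20.2 CPM in treated libraries, with no overlap (log2 fold change −0.56, SE 0.12, edgeR adjusted p = 0.00180). EIF2D, which can bring tRNA to the ribosome without eIF2, fell from 19.2 ± 1.33 to 11.5 ± 2.17 CPM (−0.73, edgeR adjusted p = 0.00116). EIF1, EIF1B, EIF2A and EIF5 were not called, with log2 fold changes from −0.16 to 0.19. Without DMSO replicate 2 only EIF1AX of this group rose.

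The exchange factor eIF2B, which reloads eIF2 with GTP, had 0 of its 5 subunits higher and 1 lower, with fitted values from −0.38 to −0.01. Over all models 25.5% were higher and 26.8% lower. EIF2B1, its α subunit, gave 36.0, 36.3 and 36.1 CPM in DMSO and 31.1, 24.5 and 27.4 CPM after treatment, with no overlap. Its log2 fold change was −0.38 (SE 0.12, edgeR adjusted p = 0.0164), and it was no longer called when DMSO replicate 2 (−0.39) or treated replicate 3 (−0.38) was left out, with upper-quartile scaling (−0.29) and with the length trend removed (−0.27). Exons of EIF2B1 overlap those of GTF2H3 on the other strand, a model with 55.1% as many counts, and the libraries do not mark strand, so the reads of the 2 genes cannot be told apart there. Of the eIF2 kinases, EIF2AK4, the GCN2 sensor of uncharged tRNA, rose from 55.8 ± 5.55 to 74.8 ± 1.44 CPM (log2 change 0.42, edgeR adjusted p = 0.00638). EIF2AK1, the haem-regulated kinase, stayed uncalled at 24.2 ± 1.02 and 22.8 ± 2.21 CPM.

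The eIF3 complex was the most even of the larger groups. Of 12 subunits 3 rose and 0 fell, beside 25.5% and 26.8% of all models. The SD of the subunits' log2 fold changes was 0.30, where it was 1.04 over all models tested and 0.84 over models of at least 10 CPM. EIF3E gave 186, 184 and 194 CPM in DMSO and 278, 432 and 310 CPM in treated libraries. All treated libraries were above DMSO, with treated replicate 2 highest (log2 fold change 0.86, SE 0.15, edgeR adjusted p = 0.000391). EIF3M rose from 151 ± 7.98 to 234 ± 46.8 CPM (0.63, edgeR adjusted p = 0.00201), and a second row with this symbol rose by 0.50 on the log2 scale. EIF3F rose less, from 206 ± 21.0 to 256 ± 4.58 CPM (0.31, edgeR adjusted p = 0.0381). The EIF3F call was lost without DMSO replicate 1 (0.23), DMSO replicate 2 (0.33) or treated replicate 3 (0.31), with no low-count filter (0.27) and with the length trend removed (0.11). The subunits EIF3A and EIF3B were not called, at −0.16 and 0.14. EIF3L was called only without treated replicate 2 (0.34, edgeR adjusted p = 0.0141).

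The cap-binding machinery moved in its less abundant parts. EIF4A1, the main helicase and, per kilobase of exon, the second most abundant member at 761 ± 39.1 CPM per kilobase in DMSO, gave 1721, 1876 and 1891 CPM in DMSO and 1778, 2346 and 1970 CPM in treated libraries. The groups overlapped and the change was not called (log2 fold change 0.15, edgeR adjusted p = 0.405). EIF4A2, its close paralog, rose from 39.1 ± 1.44 to 55.4 ± 4.68 CPM (0.50, edgeR adjusted p = 0.00203). EIF4E, the cap-binding protein, gave 303, 313 and 308 CPM in DMSO and 239, 325 and 242 CPM in treated libraries. Treated replicates 1 and 3 lay below DMSO and treated replicate 2 above it, so EIF4E was not called (−0.20), but it was lower without treated replicate 2 (−0.35, edgeR adjusted p = 0.00721). EIF4E2, a cap-binding relative that represses translation, rose from 31.9 ± 4.44 to 48.8 ± 7.45 CPM (0.61, edgeR adjusted p = 0.00254). EIF4G1, the scaffold of the complex, fell from 16.3 ± 2.74 to 10.1 ± 1.15 CPM (−0.69, edgeR adjusted p = 0.00221), while its relative EIF4G2 overlapped at 279 ± 33.4 and 273 ± 28.5 CPM. The helper EIF4B was called lower without treated replicate 1 (−0.46, edgeR adjusted p = 0.00545). Under library size alone EIF4B (−0.57) and EIF4E (−0.59) were among the 47 members called lower.

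EIF4E1B, an eIF4E paralog known from oocytes of vertebrates, had the largest fold change of the members at a very low level. It held 3, 1 and 2 counts in the DMSO libraries and 19, 17 and 23 in the treated libraries. The scaled ratio of summed counts was 9.42 (95% exact interval 4.08 to 26.7, which covers counting error only). The gene passed the low-count filter only through the treated libraries, where it is high, so it had to differ to be tested, and its call is given as a description. The treated level was 0.559 ± 0.121 CPM.

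The eIF4E-binding proteins, which hold eIF4E away from eIF4G until mTORC1 phosphorylates them, moved in opposite directions. EIF4EBP1 gave 42.5, 51.7 and 59.2 CPM in DMSO and 70.5, 95.7 and 73.7 CPM in treated libraries, all above DMSO (log2 fold change 0.65, SE 0.15, edgeR adjusted p = 0.00245). EIF4EBP2 gave 130, 138 and 127 CPM and then 106, 83.5 and 92.7 CPM, all below DMSO (−0.48, SE 0.12, edgeR adjusted p = 0.00362). EIF4EBP3 fell from 100 ± 8.57 to 66.6 ± 6.65 CPM (−0.59, edgeR adjusted p = 0.000979). The summed level of the 3 genes ran from 263 to 294 CPM in DMSO and from 232 to 253 CPM in treated libraries.

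Ratios of counts between members within a library do not depend on library scaling. The 15 ratios given here and below were chosen after values were seen, and with 3 libraries per group the exact two-sided permutation test cannot give a p below 0.10, so none can pass the threshold. The ratio of EIF4EBP1 to EIF4E counts was 0.140, 0.165 and 0.192 in DMSO and 0.295, 0.295 and 0.304 in treated libraries, a 1.81-fold difference with no overlap (exact p = 0.10). Relative to EIF4EBP2, EIF4EBP1 was 2.2-fold higher in treated cells. EIF4E2 to EIF4E differed 1.77-fold, EIF4A2 to EIF4A1 1.28-fold, EIF3E to EIF3B 1.61-fold and EIF2S1 to EIF2B1 1.78-fold. Each of these was higher in all 3 treated libraries than in any DMSO library (exact p = 0.10).

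EIF6, which keeps the large ribosomal subunit from joining too early, rose from 336 ± 16.2 to 460 ± 57.2 CPM (log2 change 0.45, edgeR adjusted p = 0.00909). EIF4A3, an exon junction protein despite its name, was not called at 142 ± 8.0 and 156 ± 32.7 CPM.

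Of the 5 members tested in the elongation factor group, EEF1E1 included, 3 rose and 0 fell, beside 25.5% and 26.8% of all models. EEF2, the translocase and, per kilobase, the most abundant member at 1536 ± 40.1 CPM per kilobase in DMSO, gave 5366, 5308 and 5104 CPM in DMSO and 6801, 6974 and 6463 CPM in treated libraries. The treated libraries were all higher, but the call was close to the threshold (log2 fold change 0.36, SE 0.14, edgeR adjusted p = 0.0478). It was lost without DMSO replicate 1 (0.37), 2 (0.36) or 3 (0.33), or without treated replicate 1 (0.36) or 3 (0.39). The EEF2 call was also lost with no low-count filter (0.31), and its value was −0.015 with library size only. The other rows named EEF2, of 316 and 275 bp and few counts, were not called (0.002 and 0.08). EEF1A1, which carries charged tRNA to the ribosome, gave 364, 360 and 380 CPM in DMSO and 464, 647 and 552 CPM in treated libraries (log2 fold change 0.59, SE 0.14, edgeR adjusted p = 0.00280). The table holds 8 rows named EEF1A1, and the one used took 95.9% of their counts; reads of near-identical copies may be split among them. The next 2 EEF1A1 rows by count were not called (−0.17 and −0.02).

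EEF1B2, listed as EEF1B2.L and part of the complex that recharges eEF1A with GTP, rose from 1722 ± 224 to 2249 ± 105 CPM (0.39, edgeR adjusted p = 0.0370). Its call was lost without DMSO replicate 1 (0.28), DMSO replicate 2 (0.39) or treated replicate 3 (0.38), and the short row named EEF1B2 was not called (0.10). Only 1 elongation factor rose without DMSO replicate 1, DMSO replicate 2 or treated replicate 3. EEF1D, of the same complex, was 707 ± 65.2 and 853 ± 9.61 CPM, without overlap but not called (0.27, edgeR adjusted p = 0.0887); it was called without treated replicate 2 (0.28, edgeR adjusted p = 0.0482), with upper-quartile scaling (0.36), DESeq2 (0.28) and the length trend removed (0.33). EEF1E1, a scaffold of the synthetase complex, was represented by a model of 361 bp with at most 15 counts and was not called (−1.03, edgeR adjusted p = 0.0781). It was called lower with the length trend removed (−1.23) and under library size alone (−1.38). EEF1E1 passed the main low-count filter only through the DMSO libraries, where it is high. Its values are therefore a description, also in the counts of members without overlap.

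The enzymes that modify elongation factors changed most by size: 4 of 7 fell and 1 rose, and 4 of these 5 changed at least 2-fold. Over all models 26.8% fell and 25.5% rose, with 12.9% lower and 11.7% higher by at least 2-fold. EEF1AKMT3, a lysine methyltransferase of eEF1A, gave 11.5, 9.36 and 7.96 CPM in DMSO and 3.27, 2.02 and 3.17 CPM in treated libraries. The groups were well apart (log2 fold change −1.75, SE 0.21, edgeR adjusted p = 1.46e-05); the gene spans 450702989 to 451084960 on chromosome 3q (minus strand). EEF1AKMT2 fell from 7.82 ± 0.258 to 3.18 ± 0.687 CPM (−1.28, edgeR adjusted p = 7.58e-05), although its exons overlap FAM53B on the other strand, which has 52.3% as many counts. EEF1AKMT4 fell from 9.52 ± 0.406 to 4.65 ± 0.921 CPM (−1.05) and EEF1AKNMT, which also methylates the start of eEF1A, from 16.6 ± 1.51 to 11.0 ± 1.79 CPM (−0.60).

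EEF1AKMT1, a methyltransferase of another lysine of eEF1A, went the other way. It gave 12.5, 14.4 and 14.3 CPM in DMSO and 26.0, 51.2 and 31.5 CPM in treated libraries, with treated replicate 2 highest (log2 fold change 1.39, SE 0.20, edgeR adjusted p = 7.99e-05). Another row with this symbol rose by 1.36 on the log2 scale, but it lies within the span of the row used, on 7q and the same strand. The remaining EEF1AKMT1 row, with few counts, overlapped between the groups and was not called (0.67, edgeR adjusted p = 0.227). The ratio of EEF1AKMT1 to EEF1AKMT3 counts was 1.09, 1.54 and 1.80 in DMSO and 7.95, 25.4 and 9.94 in treated libraries (exact permutation p = 0.10). EEF2K, the kinase that switches off eEF2, was not called at 8.02 ± 1.35 and 6.80 ± 0.587 CPM, nor was EEF2KMT (0.04). GSPT1, the release factor eRF3, was represented by a model of 420 bp with 5 counts in DMSO and 3 in treated libraries in all, too few to test.

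**Figure D2:**
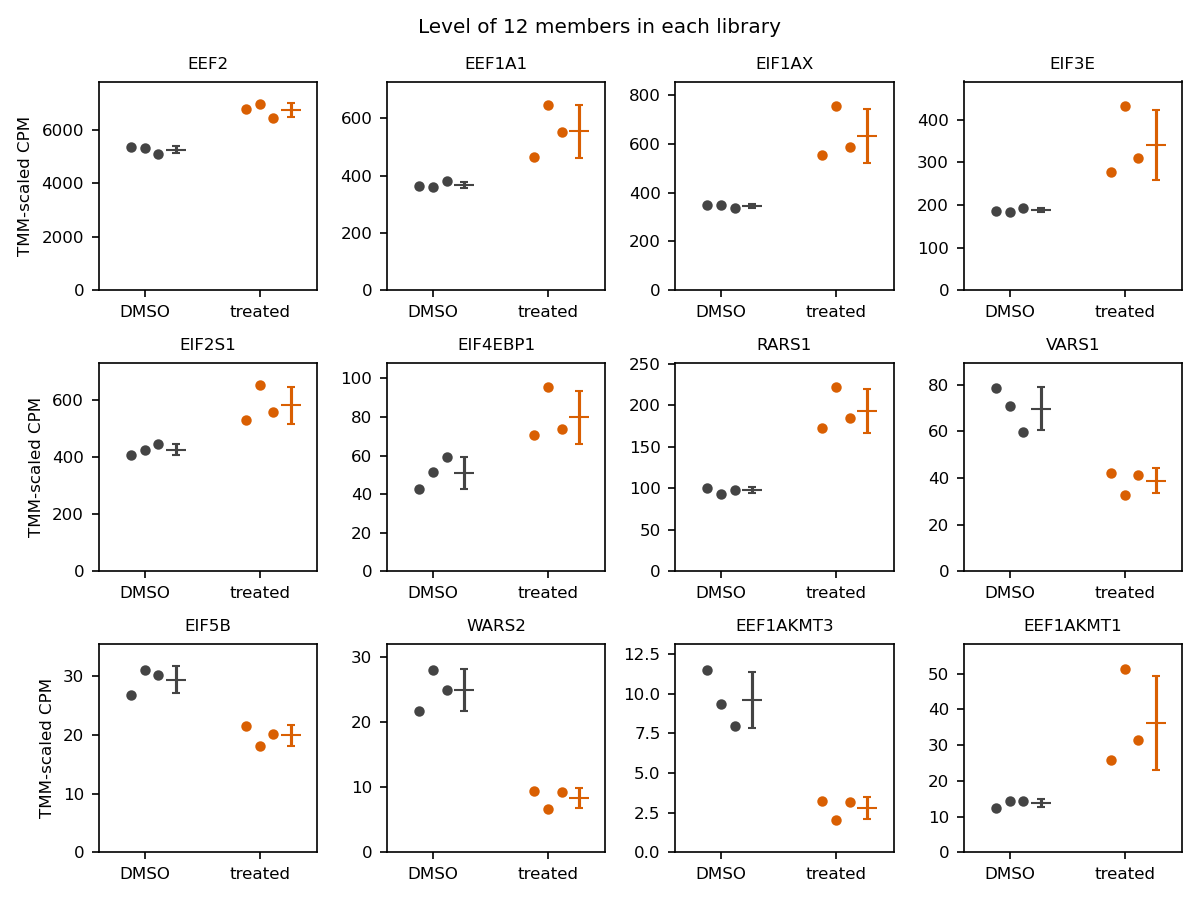
TMM-scaled CPM of 12 members in each of the 6 libraries (dots), with the mean and SD of each group beside them; every axis starts at 0. In every panel the treated dots lie on one side of the DMSO dots. Treated replicate 2, the middle treated dot, is the furthest from DMSO in each panel, highest in the rises and lowest in the falls.

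Cytosolic aminoacyl-tRNA synthetases moved both ways. Of 17 tested, 4 rose, 4 fell and 9 were not called, where 25.5% of all models rose and 26.8% fell. The median log2 fold change was −0.16, beside −0.03 over all models. The summed level of the group ran from 2936 to 3106 CPM in DMSO and from 2895 to 3218 CPM in treated libraries. RARS1, for arginine, gave 101, 93.8 and 98.1 CPM in DMSO and 172, 222 and 185 CPM in treated libraries. This was the largest rise among the synthetases tested (0.98 on the log2 scale, SE 0.12, edgeR adjusted p = 1.91e-05). RARS1 lies on chromosome 3q at 803914534 to 804336476 (plus strand). YARS1, for tyrosine, rose from 284 ± 8.96 to 394 ± 23.5 CPM (0.47, edgeR adjusted p = 0.00400), and CARS1, for cysteine, from 19.5 ± 0.752 to 27.2 ± 2.03 CPM (0.48, edgeR adjusted p = 0.00385).

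VARS1, for valine, showed the largest fall among the cytosolic enzymes tested, with 78.4, 70.7 and 59.9 CPM in DMSO and 42.3, 32.7 and 41.5 CPM in treated libraries. The groups did not overlap (log2 fold change −0.84, SE 0.14, edgeR adjusted p = 0.000179). TARS1, for threonine, fell from 71.6 ± 2.76 to 51.0 ± 10.3 CPM (−0.49) and MARS1, for methionine, from 204 ± 8.78 to 151 ± 14.2 CPM (−0.43). IARS1, for isoleucine, fell from 66.8 ± 14.8 to 51.9 ± 0.325 CPM (−0.36, edgeR adjusted p = 0.0441). DMSO replicate 1, at 83.8 CPM, stood above the other DMSO libraries, and without it the IARS1 value was −0.17. The IARS1 call was also lost without treated replicate 1 (−0.36), 2 (−0.36) or 3 (−0.37), and with RLE scaling (−0.33), upper-quartile scaling (−0.27), DESeq2 (−0.35) or the length trend removed (−0.19). KARS1, for lysine, had treated libraries all above DMSO without a call (0.29, edgeR adjusted p = 0.0648), and was called without treated replicate 2 (0.37), with RLE scaling (0.32), upper-quartile scaling (0.38), DESeq2 (0.30) and the length trend removed (0.31). LARS1, for leucine, was called lower without treated replicate 1 (−0.31), and, with many other members, under library size alone (−0.59). SARS1, the most abundant synthetase per kilobase at 233 ± 6.98 CPM per kilobase in DMSO, was not called (−0.22, edgeR adjusted p = 0.132). NARS1, for asparagine, was not called (−0.16), while a second and shorter row with that symbol was lower (−0.44).

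**Figure D3:**
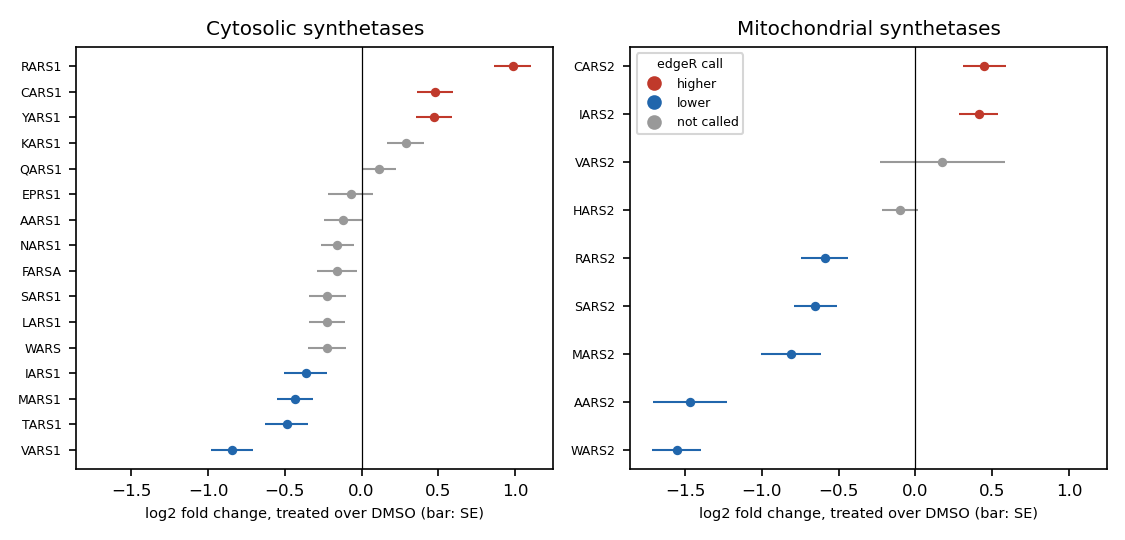
Log2 fold change, treated over DMSO, of 16 cytosolic (left) and 9 mitochondrial (right) synthetases, coloured by edgeR's call; bars are standard errors. Cytosolic enzymes spread from −0.84 to 0.98 around 0, while 5 of the 9 mitochondrial enzymes shown lie below −0.5.

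The mitochondrial synthetases tested were mostly lower. Of 10 tested 6 fell and 2 rose, where 26.8% of all models fell and 25.5% rose. Their median log2 fold change was −0.62, beside −0.03 over all models, and their summed level was 233 to 238 CPM in DMSO and 176 to 192 CPM in treated libraries. WARS2, for tryptophan, gave 21.7, 28.1 and 24.9 CPM in DMSO and 9.38, 6.63 and 9.26 CPM in treated libraries. The groups lay well apart (log2 fold change −1.56, SE 0.16, edgeR adjusted p = 3.64e-06). WARS2 spans 30950312 to 31074678 on chromosome 7p (plus strand). AARS2, for alanine, fell from 7.14 ± 1.96 to 2.54 ± 0.671 CPM (−1.47, edgeR adjusted p = 0.000213). MARS2 fell from 7.74 ± 0.30 to 4.47 ± 1.25 CPM (−0.81).

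SARS2 and RARS2 fell by 0.65 and 0.59 on the log2 scale. All 6 falls stayed called in every alternative, library size only included. Under library size only 7 mitochondrial synthetases were lower and 0 higher, beside 40.3% and 13.3% of all models. The rises were CARS2, from 9.45 ± 0.532 to 12.9 ± 0.830 CPM (0.45, edgeR adjusted p = 0.0140), and IARS2, listed as IARS2.L, from 27 ± 4.0 to 36.0 ± 0.954 CPM (0.41, edgeR adjusted p = 0.0146). The CARS2 call was lost when DMSO replicate 3 (0.40) or treated replicate 3 (0.42) was left out, and with no low-count filter (0.41). IARS2 lost its call without DMSO replicate 2 (0.35), DMSO replicate 3 (0.34) or treated replicate 3 (0.40). Without DMSO replicate 3 or treated replicate 3, 0 mitochondrial synthetases were higher.

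For 8 amino acids both enzymes could be compared within each library. The mitochondrial to cytosolic count ratio was lower in all treated libraries than in all DMSO libraries for alanine, arginine, serine and tryptophan. It was higher for isoleucine and valine, and it overlapped for cysteine and methionine. The arginine pair differed most: RARS2 to RARS1 was 0.409, 0.428 and 0.435 in DMSO and 0.125, 0.157 and 0.142 in treated libraries (exact permutation p = 0.10). For tryptophan, WARS2 to WARS fell from 0.137 ± 0.0230 to 0.0536 ± 0.00414 (SD, n = 3 per group, exact permutation p = 0.10), where exons of WARS overlap WDR25 on the other strand, a model with 17.7% as many counts. The valine ratio rests on 10 to 21 VARS2 counts per library.

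**Figure D4:**
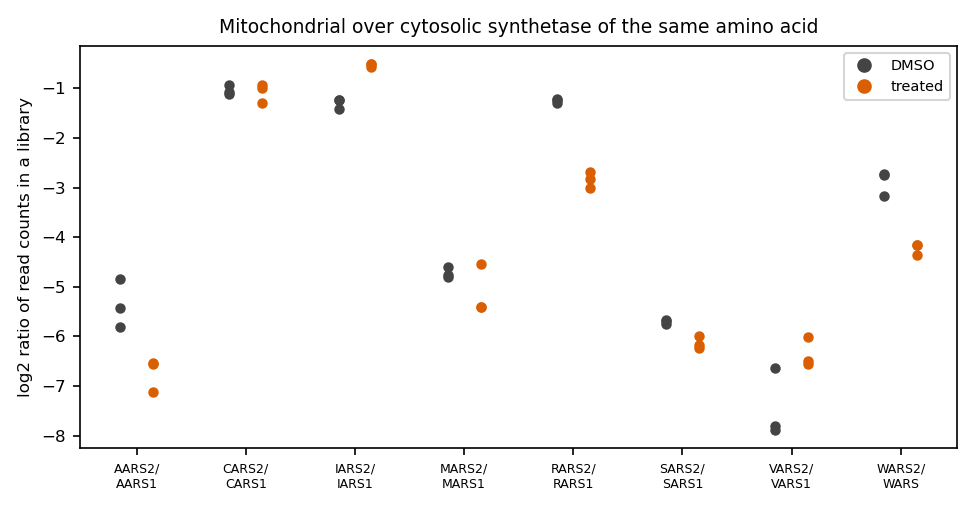
Log2 ratio of the read counts of the mitochondrial to the cytosolic synthetase of the same amino acid in each library, DMSO on the left and treated on the right of each pair. Treated libraries lie below DMSO in 4 of 8 pairs, above in 2, and overlap in 2; exonic lengths differ between the enzymes, so heights are not compared across pairs.

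Genes around these members were read from 4 lists; over all models 25.5% rose, 26.8% fell and the median log2 fold change was −0.03. The integrated stress response is the programme that follows eIF2 phosphorylation, and its list here also counts the eIF2 kinase genes EIF2AK2 and EIF2AK3. Of 23 tested genes of this list 12 fell and 5 rose, with a median of −0.48. Without treated replicate 2 that median was −0.32, and without DMSO replicate 3 the rises numbered 3. ATF4, its main transcription factor, fell from 1311 ± 68.3 to 856 ± 94.9 CPM (log2 change −0.62, edgeR adjusted p = 0.00181). The serine synthesis gene PSAT1 fell from 332 ± 14.8 to 117 ± 9.53 CPM (−1.51), the amino acid transporter gene SLC7A5 from 40.4 ± 1.56 to 16.7 ± 1.31 CPM (−1.27), and CHAC1 from 58.1 ± 3.56 to 24.4 ± 4.43 CPM (−1.25). Other genes of the list rose: ASNS, asparagine synthetase, from 84.3 ± 2.12 to 132 ± 13.9 CPM (0.65), and DDIT3, the CHOP gene, from 72.5 ± 4.06 to 113 ± 4.47 CPM (0.64). Of the eIF2 kinases outside the set, EIF2AK3 fell from 5.79 ± 0.921 to 3.39 ± 0.185 CPM (−0.77). EIF2AK2 rose from 2.52 ± 0.214 to 3.85 ± 0.452 CPM (0.61), a call lost without DMSO replicate 2, DMSO replicate 3 or treated replicate 1. With library size only 14 genes of the list fell and 2 rose, beside 40.3% and 13.3% of all models.

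In the mTORC1 list 11 of 25 tested genes rose and 5 fell, with a median of 0.08. The rises include RICTOR (1.14), which encodes a subunit of the other mTOR complex. With single libraries left out the median was −0.02 (treated replicate 1 out), 0.25 (treated replicate 3 or DMSO replicate 2 out), 0.23 (treated replicate 2 out) and 0.16 (DMSO replicate 1 out, where the falls numbered 3). PDCD4, an inhibitor of eIF4A, rose from 44.9 ± 3.83 to 223 ± 18.1 CPM (log2 fold change 2.31), RHEB, the activator of mTORC1, from 123 ± 12.1 to 297 ± 59.1 CPM (1.27), and LAMTOR2, of its lysosomal anchor, from 141 ± 15.2 to 325 ± 76.7 CPM (1.20). MKNK2, a kinase of eIF4E, fell from 80.3 ± 8.32 to 26.3 ± 4.04 CPM (−1.61), the S6 kinase gene RPS6KB1 from 64.5 ± 10.5 to 32.8 ± 3.61 CPM (−0.98) and LARP1 from 13.7 ± 1.29 to 7.56 ± 0.275 CPM (−0.85). MTOR itself was not called at 5.36 ± 1.17 and 5.26 ± 0.808 CPM. With library size only 7 of these genes rose and 8 fell, beside 13.3% and 40.3% of all models.

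Among other cytosolic translation factors 10 of 19 tested rose and 2 fell, beside 25.5% and 26.8% of all models, with a median of 0.31. IMPACT, which restrains GCN2, rose from 2.65 ± 0.207 to 4.2 ± 0.20 CPM (0.66), AIMP1, a scaffold of the synthetase complex, from 74.4 ± 14.3 to 116 ± 10.8 CPM (0.64) and DTD1, which clears misloaded tRNA, from 4.36 ± 0.575 to 6.65 ± 0.934 CPM (0.61). The IMPACT call was lost with the length trend removed, and the DTD1 call without DMSO replicate 1 or treated replicate 3. LARP4 fell by 0.73 and ABCF1 by 0.59 on the log2 scale. The rises in this list were few without some libraries, 4 without DMSO replicate 1 and 5 without DMSO replicate 2. They numbered 0 under library size alone, where 13.3% of all models rose.

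In the list of mitochondrial translation factors 10 of 17 tested genes fell and 1 rose, beside 26.8% and 25.5% of all models, with a median of −0.41. The list also holds enzymes that charge tRNA or modify charged tRNA, and EARS2, PARS2, GATB, QRSL1 and MTFMT are among its falls. GATB, of the enzyme that makes glutaminyl-tRNA in mitochondria, fell from 19.2 ± 0.889 to 7.61 ± 0.791 CPM (−1.33, edgeR adjusted p = 3.57e-06), GUF1 from 14.7 ± 1.58 to 8.28 ± 0.446 CPM (−0.83) and MTRF1L, a release factor, from 55.7 ± 2.76 to 32.8 ± 5.49 CPM (−0.77). EARS2 and PARS2, mitochondrial synthetase genes that the symbol rule leaves out, fell by 0.41 each on the log2 scale. Both calls were lost with upper-quartile scaling and without some of the libraries. TSFM, an elongation factor, rose from 64.0 ± 7.58 to 91.9 ± 23.2 CPM (0.52), a call lost without DMSO replicate 1 or 2 and with the length trend removed. The number of genes that fell in this list was 6 with upper-quartile scaling, 6 without treated replicate 3, and 12 under library size alone. Under library size alone 40.3% of all models fell.

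**Figure D5:**
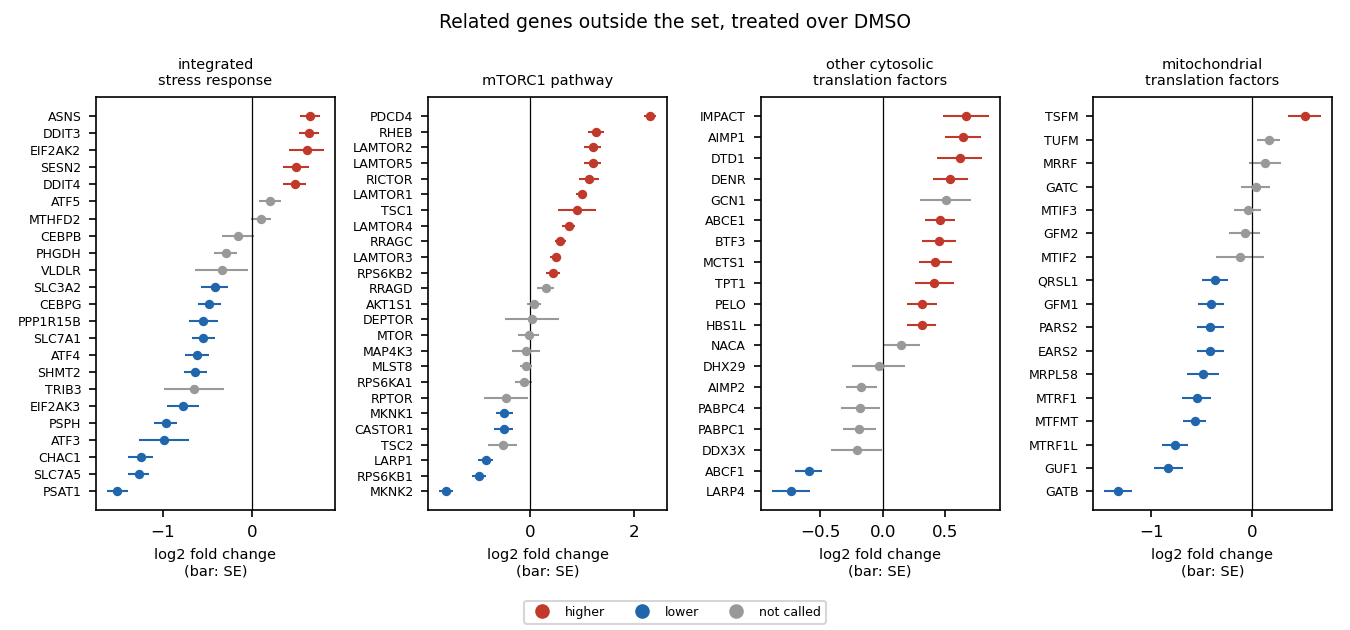
Log2 fold change, treated over DMSO, with standard errors, of the tested genes in 4 related lists, coloured by edgeR's call; the scales of the panels differ. Rises and falls mix in the stress response and mTORC1 panels. Rises lead among other cytosolic factors (10 of 19), and falls lead in the mitochondrial list (10 of 17), which includes enzymes that charge or modify tRNA.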

How the data were processed

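The deposited data are unnormalized counts of reads, as whole numbers, in 1 table with a row for each gene model and a column for each sample. The submitters' processing notes name bcl2fastq 2.20.0, STAR 2.7.7a and featureCounts 2.0.1 without roles; the table is named for the genome build AmexG_v6_DD. Treatment of multi-mapping reads is not given in the sources used here. Per the labels' protocols, 1000 ng of RNA entered a modified Smart-seq2 procedure read in pairs of 100 bp; without molecular identifiers or strand marking, so intervals cover counting error only. The authors' length per gene model (in bases, per the file headers) was used for levels per kilobase.

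Columns were matched to samples by description label. Replicates differed by more than sampling noise (chi-square per degree of freedom 4.17 to 44.7 within groups). The 92 spike-in rows held 0 counts and were left out. In R 4.3.3, edgeR 4.0.16 (filterByExpr, TMM, robust quasi-likelihood F-test, two-sided) was fitted on the whole table, with Benjamini-Hochberg adjustment over 17424 models. The fit was also tested on simulated data in which few models changed, unlike here, so that test does not cover the choice of scaling. SE comes from the F statistic. DESeq2 1.42.0 was an alternative, as were other scalings, filters, row choices and leaving out each library; removing the trend with exonic length was added after seeing the data.

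The members, role groups and related lists were chosen with earlier results of these data known. Named in each role group are up to 4 called rises and 4 called falls by size, in each related list up to 3, plus fixed regulators; members outside this rule are named where a count or a lost call concerns them. EIF5A and ETF1, fixed as names, were not analysed here. Of 87 member symbols, 82 are also in the RefSeq gene table of another axolotl assembly, from which no value was taken. A few members are counted in their groups but not reported singly here.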

Additional observations from a re-analysis of the deposited data

How the results depend on the processing

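No paired analysis was possible because the labels give no replicate numbers. The members changed numbered 34 to 44 when each library was left out in turn (42 with all), 15 to 24 higher and 18 to 21 lower. Over all models these fits gave 7590 to 9234 changed, with 20.6% to 25.1% of the models tested higher and 21.6% to 26.4% lower. The members' median was −0.07 to −0.03. With library size only, 2314 of all models were higher (13.3%) and 7029 lower (40.3%). In that fit 5 members were higher and 47 lower, and the members' median was −0.42. The members' median changed sign, from −0.05 in the main fit, with upper-quartile scaling (0.034) and with the length trend removed (0.051). Under library size only the sign changed for many members. Of those reported singly and called in the main fit, EEF2 (−0.015) and EIF3F (−0.054) changed sign and then were not called. EIF2S3 (−0.31), EIF3D (−0.35) and EIF3J (−0.35) also changed sign, and then were called. Members called in neither of these fits changed sign too, EIF4A1, EIF3B and EIF5 among them. RLE scaling, both filters, DESeq2, summed rows and symbols without an ending kept each count of members within 1.5 times its value. Spearman's ρ between exonic length and log2 fold change was −0.12 over 83 members and −0.18 over all models, as a description. With the length trend removed 47 members were called. EIF3B (0.28), EIF5 (0.30), QARS1 (0.25), EIF1B (−0.28) and NARS1 (−0.33) were among the calls gained there. The cause of each lost or gained call was not tested. Depth limits EIF4G3, EEF1A2, GSPT1, LARS, EEF1E1, VARS2 and EIF4E1B, with at most 23 counts per library.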
